A study of Sus scrofa with 9 samples.

Results

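The SLC25 family, the mitochondrial carriers, was examined in the back muscle of finishing pigs fed different amounts of lysine. The family was taken as every gene whose symbol in the array's annotation began with SLC25A and a number, plus the uncoupling proteins UCP2 and UCP3, and each gene was read from its brightest probe set over the 9 arrays when it had more than 1. This gave 35 genes among the 12361 named genes of the array, or 37 of 27558 probe sets. The muscle was the longissimus dorsi of male pigs, taken between ribs 10 and 12, and each of 3 diets was fed to 3 pigs that weighed about 95 kg at the start. The diets, given for 5 weeks, were lysine-deficient (pigs 1, 2 and 3), lysine-excess (pigs 9, 10 and 11) and lysine-adequate (pigs 5, 6 and 7), and 1 array was run per pig. The lysine amounts, the breed and the feed intake were not among the labels.

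Mitochondrial carriers are small proteins that span the inner mitochondrial membrane and move metabolites between the cytosol and the matrix, usually by exchanging a molecule on either side. In muscle they bring ADP and phosphate in and send ATP out, pass reducing power from the cytosol to the respiratory chain, admit fatty acids as acylcarnitines, and supply the matrix with cofactors, nucleotides, amino acids and iron. Lysine is broken down inside mitochondria, and SLC25A29, a carrier of basic amino acids, and SLC25A21, a carrier of the lysine breakdown product 2-oxoadipate, belong to the family.

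The deposited values were on a log scale taken as log2, and all values and differences below are log2 values. The arrays had medians between 5.01 and 5.21. Excess pig 11 stood apart: its values over all probe sets had an SD of 1.82 against 1.93 to 1.99 on the other arrays, and its correlations with them were 0.904 to 0.956. Results that rest on that pig are given with and without it. Other single pigs also weighed heavily: leaving out 1 pig moved 22 of the 24 carriers given by the naming rule by more than 1.5 times, or turned their sign, in deficient against adequate, all 24 in excess against adequate and 22 in deficient against excess. The 7 measured of 13 skeletal muscle markers all lay above the median of all probe sets, 5.07, with means of 12.70 to 12.78 in deficient, 12.77 to 12.86 in excess and 12.74 to 12.84 in adequate pigs. Bulk muscle was measured, so fewer cells of a type and less RNA per cell cannot be told apart.

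The pig gene table holds 47 genes of the family. For 12 of them no probe set carried that gene's symbol alone, and these are not analysed here. A probe set shared by the ADP/ATP carriers SLC25A5 and SLC25A6 was left out by the rule and read 6.55, 6.32 and 7.07 in deficient, 7.13, 6.70 and 6.12 in excess, and 6.81, 6.49 and 6.86 in adequate pigs, with overlapping groups. Dim members, whose mean was under the median level of the array, numbered 7 (SLC25A15, SLC25A22, SLC25A31, SLC25A33, SLC25A45, SLC25A48 and SLC25A53), and signal over background was not tested.

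**Figure D1:**
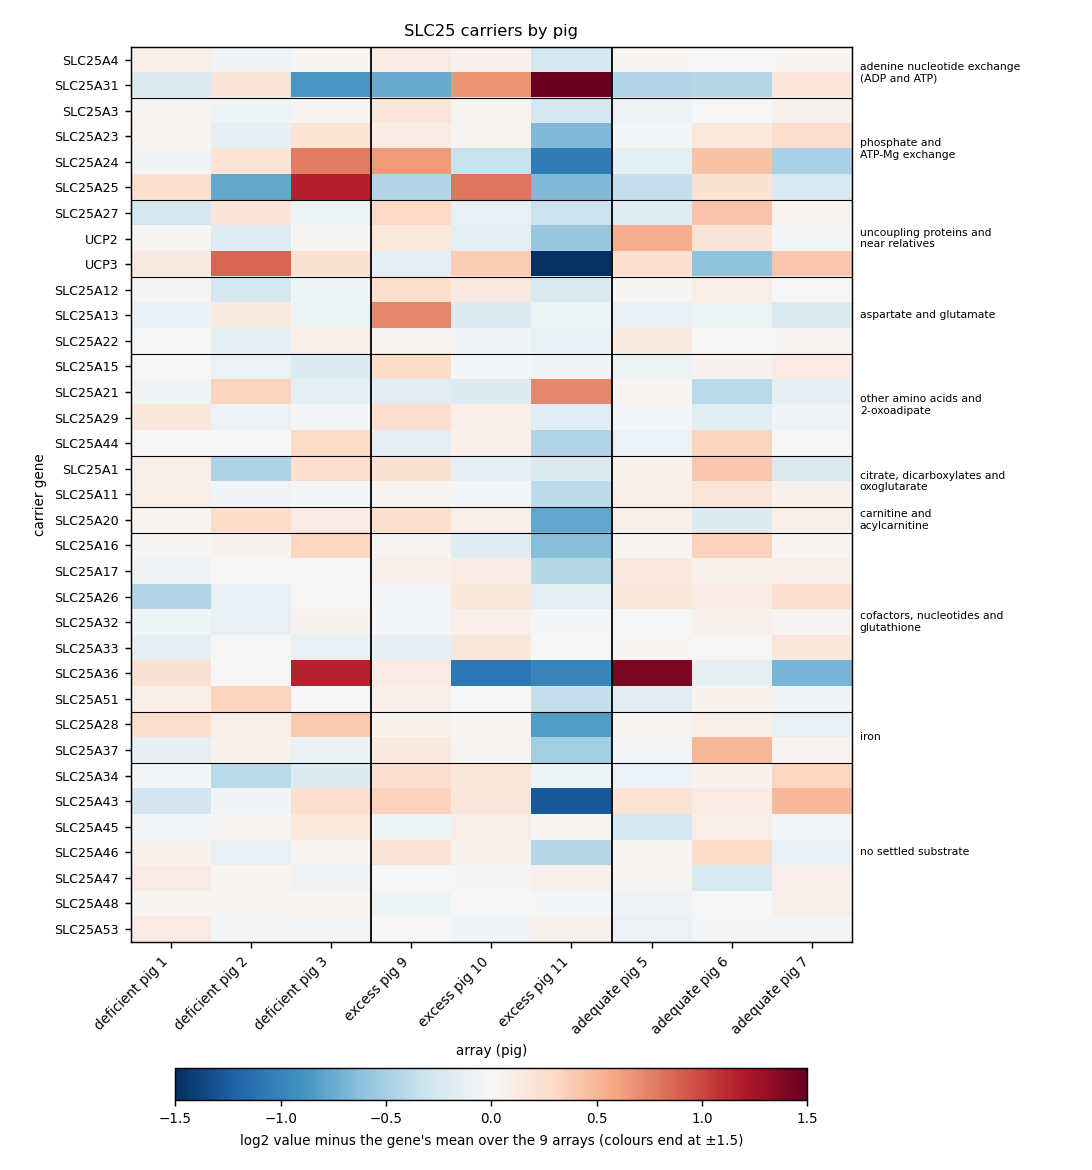
Log2 value of each of the 35 carriers in each of the 9 pigs, minus that gene's mean over the 9 arrays, with genes grouped by what they carry and pigs by diet (deficient, excess, adequate). Colours end at ±1.5, and the column of excess pig 11 holds the lowest value of 18 carriers.

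The comparison of the lysine-deficient with the adequate diet asked which carriers differ when lysine is short. SLC25A26, which brings S-adenosylmethionine, the donor for methylation reactions, into the matrix, was lower in every deficient pig than in any adequate pig. SLC25A17, a peroxisomal member of the family, was also below without overlap, and SLC25A28, the iron carrier mitoferrin-2, was above without overlap. The main ADP/ATP carrier of muscle, SLC25A4, and the phosphate carrier SLC25A3 differed by 0.00 ± 0.10 and 0.01 ± 0.11 (SE, 3 pigs per diet).

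No carrier passed an adjusted p of 0.05 in limma's test between deficient and adequate pigs, and the smallest adjusted p of a carrier was 1.00. At an unadjusted p under 0.05, 1 of 35 carriers differed (SLC25A26), against 1.85% of all probe sets (0.842% higher and 1.01% lower). The diets did not overlap for 3 of 35 carriers, 1 higher and 2 lower, against 6.84% of all probe sets (3.77% higher and 3.07% lower). Of the 35 carriers, 18 were higher and 17 lower, and the median difference was 0.005, against 0.007 over all probe sets.

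The comparison of the lysine-excess with the adequate diet asked the same of a surplus. SLC25A11, the oxoglutarate carrier of the malate-aspartate shuttle, was lower in all 3 excess pigs than in any adequate pig. SLC25A16, a carrier linked to coenzyme A, and UCP2 were lower by means of 0.38 and 0.42 with overlapping groups. No carrier passed the adjusted threshold (smallest adjusted p 0.757) or an unadjusted p of 0.05, against 3.56% of all probe sets at the unadjusted threshold (1.35% higher and 2.21% lower). SLC25A11 was the only carrier of 35 without overlap, against 7.03% of all probe sets (3.2% higher and 3.84% lower). The median of the carriers was -0.09, with 11 higher and 24 lower (31.4% higher), against 0.001 and 50.2% higher over all probe sets. Among the 28 carriers above the median level, 25% were higher, against 28.3% of all such probe sets, so the count is near that background. The carrier median without excess pig 11 was 0.02, with 19 higher and 16 lower. Of the 28 carriers above the median level, 53.6% were then higher, against 44% of all such probe sets.

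The comparison of the deficient with the excess diet set the extremes of lysine supply against each other. SLC25A28 and SLC25A48 were above without overlap in deficient pigs, and SLC25A34, whose substrate is not settled, was lower by 0.33 with overlapping groups. No carrier passed the adjusted threshold (smallest adjusted p 0.872) or an unadjusted p of 0.05, against 4.08% of all probe sets at the unadjusted threshold (2.84% higher and 1.23% lower). The 2 of 35 carriers without overlap, both higher, stand against 6.47% of all probe sets (4.28% higher and 2.19% lower). The median of the 35 differences was 0.04, with 23 carriers higher and 12 lower (65.7% higher), against 50% higher over all probe sets. Among the 28 carriers above the median level, 67.9% were higher, against 65.2% of all such probe sets, so the count is near that background. The median without excess pig 11 was -0.06, with 13 higher and 22 lower. Of the 28 carriers above the median level, 35.7% were then higher, against 49.2% of all such probe sets, and this gap was not tested. The F test over the 3 diets gave no carrier at an unadjusted p under 0.05, against 2.54% of all probe sets; SLC25A26 had the smallest value, 0.0714.

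**Figure D2:**
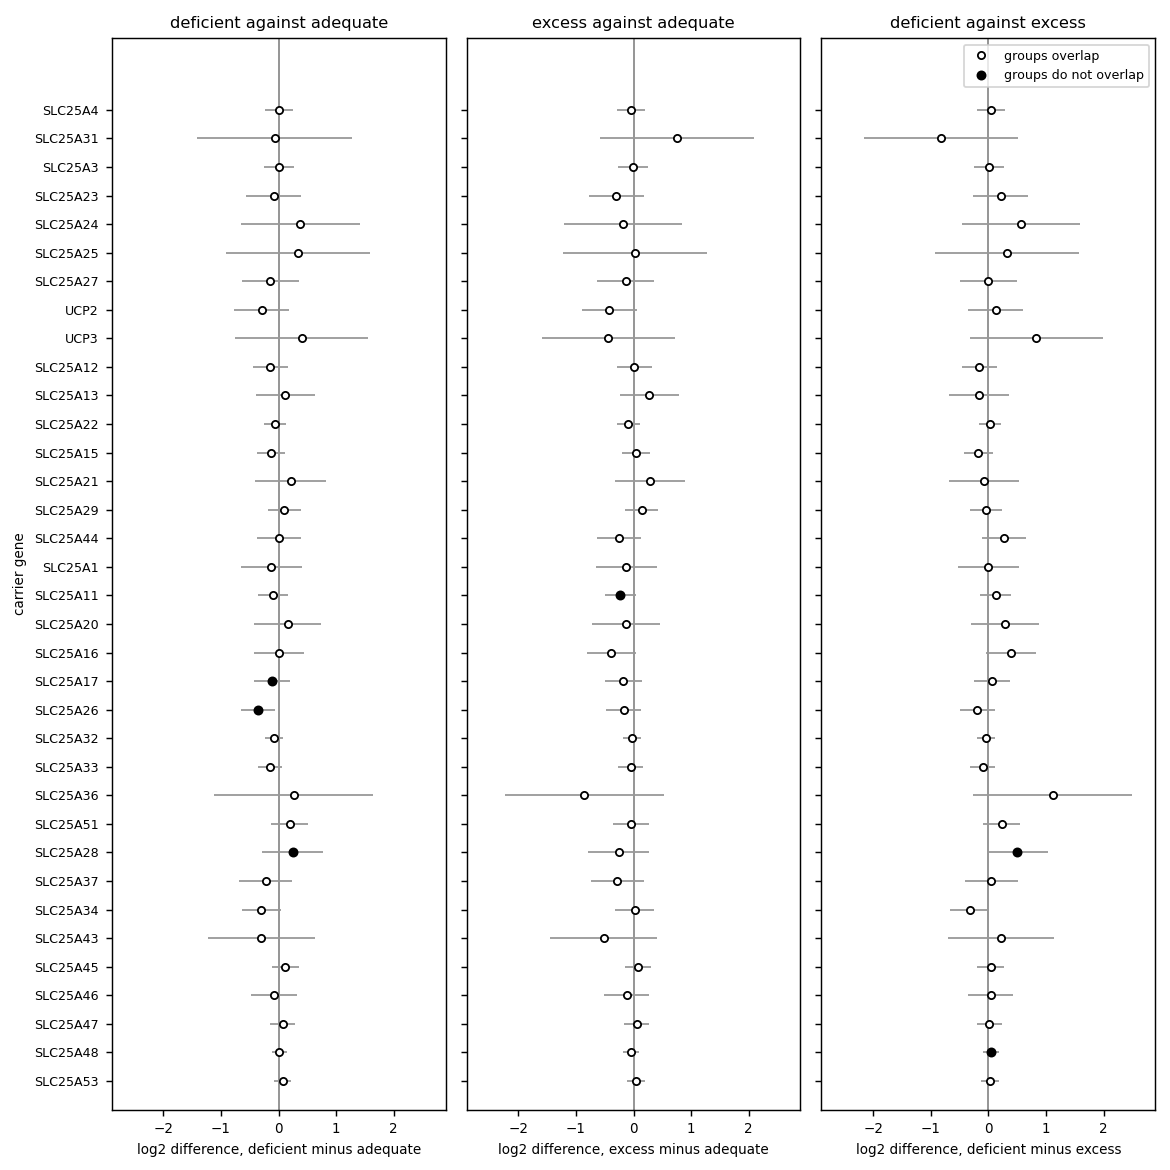
Log2 difference with its 95% interval from the limma fit for each of the 35 carriers, in the comparisons deficient minus adequate, excess minus adequate and deficient minus excess. Filled points mark the carriers whose 3 pigs of each diet do not overlap: SLC25A17, SLC25A26 and SLC25A28 on the left, SLC25A11 in the middle, SLC25A28 and SLC25A48 on the right.

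Exchange of adenine nucleotides and phosphate is the step that couples the muscle's ATP use to respiration. SLC25A4, the ADP/ATP carrier that dominates in heart and skeletal muscle, read 12.65, 12.53 and 12.58 in deficient pigs, 12.69, 12.62 and 12.30 in excess pigs, and 12.58, 12.57 and 12.58 in adequate pigs. SLC25A3, which imports the phosphate used by ATP synthase, read 10.67, 10.57 and 10.67 in deficient, 10.82, 10.67 and 10.38 in excess, and 10.55, 10.64 and 10.69 in adequate pigs. Both had narrow ranges, with their lowest value in excess pig 11 and their highest in excess pig 9. For SLC25A4 the 95% interval of deficient minus adequate was -0.24 to 0.24, and that of excess minus adequate was -0.28 to 0.20. For SLC25A3 these intervals were -0.25 to 0.27 and -0.27 to 0.26.

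SLC25A31, an ADP/ATP carrier known mainly from testis in mouse and human, was among the most variable members. It read 4.80, 5.22 and 4.15 in deficient pigs, 4.26, 5.68 and 6.69 in excess pigs, and 4.58, 4.59 and 5.21 in adequate pigs. The highest value was that of excess pig 11, and the groups overlapped. Excess minus adequate was 0.75 ± 0.58 (SE, unadjusted p 0.231), and 0.18 without excess pig 11.

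The ATP-Mg/phosphate carriers, which adjust the adenine nucleotide pool of the matrix and respond to calcium, were SLC25A23, SLC25A24 and SLC25A25. SLC25A23 read 5.36, 5.20 and 5.52 in deficient, 5.43, 5.36 and 4.65 in excess, and 5.29, 5.47 and 5.58 in adequate pigs. SLC25A24 read 7.15, 7.39 and 7.97 in deficient, 7.83, 6.86 and 6.14 in excess, and 7.04, 7.63 and 6.70 in adequate pigs. In both genes excess pig 11 was the lowest of the 9 and the diets overlapped. SLC25A24 had a deficient minus excess difference of 0.56 ± 0.44 (SE, unadjusted p 0.242), which was 0.16 without excess pig 11. SLC25A25 ranged over 6.34 to 8.27 in deficient, 6.44 to 7.91 in excess and 6.74 to 7.31 in adequate pigs, and its diet means differed by at most 0.34.

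The uncoupling proteins are family members named for letting protons, or anions that carry them, back across the inner membrane. UCP3, found mainly in skeletal muscle and raised there by fasting and fatty acids in rodents and humans, read 8.37, 9.12 and 8.46 in deficient pigs, 8.10, 8.60 and 6.73 in excess pigs, and 8.47, 7.63 and 8.64 in adequate pigs. Deficient pig 2 was the highest and excess pig 11 the lowest of the 9, and the 3 diets overlapped. Deficient minus excess was 0.83 ± 0.49 (SE, 1.78-fold, unadjusted p 0.131, adjusted p 0.872), which is the widest gap of the uncoupling proteins in this comparison. Without excess pig 11 it was 0.30. Excess minus adequate was -0.44 ± 0.49 and turned to 0.10 without that pig, while deficient minus adequate was 0.40 ± 0.49, or 0.17 without deficient pig 2 and 0.09 without adequate pig 6.

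UCP2, a relative present in many tissues and in immune cells, read 5.28, 5.08 and 5.28 in deficient, 5.43, 5.12 and 4.69 in excess, and 5.81, 5.46 and 5.24 in adequate pigs. The adequate pigs held the highest values, but adequate pig 7 lay within the range of the other diets. Excess minus adequate was -0.42 ± 0.21 (SE, 95% interval -0.90 to 0.06, unadjusted p 0.0757) and -0.23 without excess pig 11; deficient minus adequate was -0.29 ± 0.21. The 3 measured of 5 macrophage markers averaged 4.68 to 4.90 in deficient, 4.62 to 4.96 in excess and 4.84 to 4.97 in adequate pigs. Only 1 of these markers lay above the median level of the array, and their part in the UCP2 values was not tested. SLC25A27, a relative best known from brain, had diet means of 6.52, 6.52 and 6.66 in deficient, excess and adequate pigs.

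**Figure D3:**
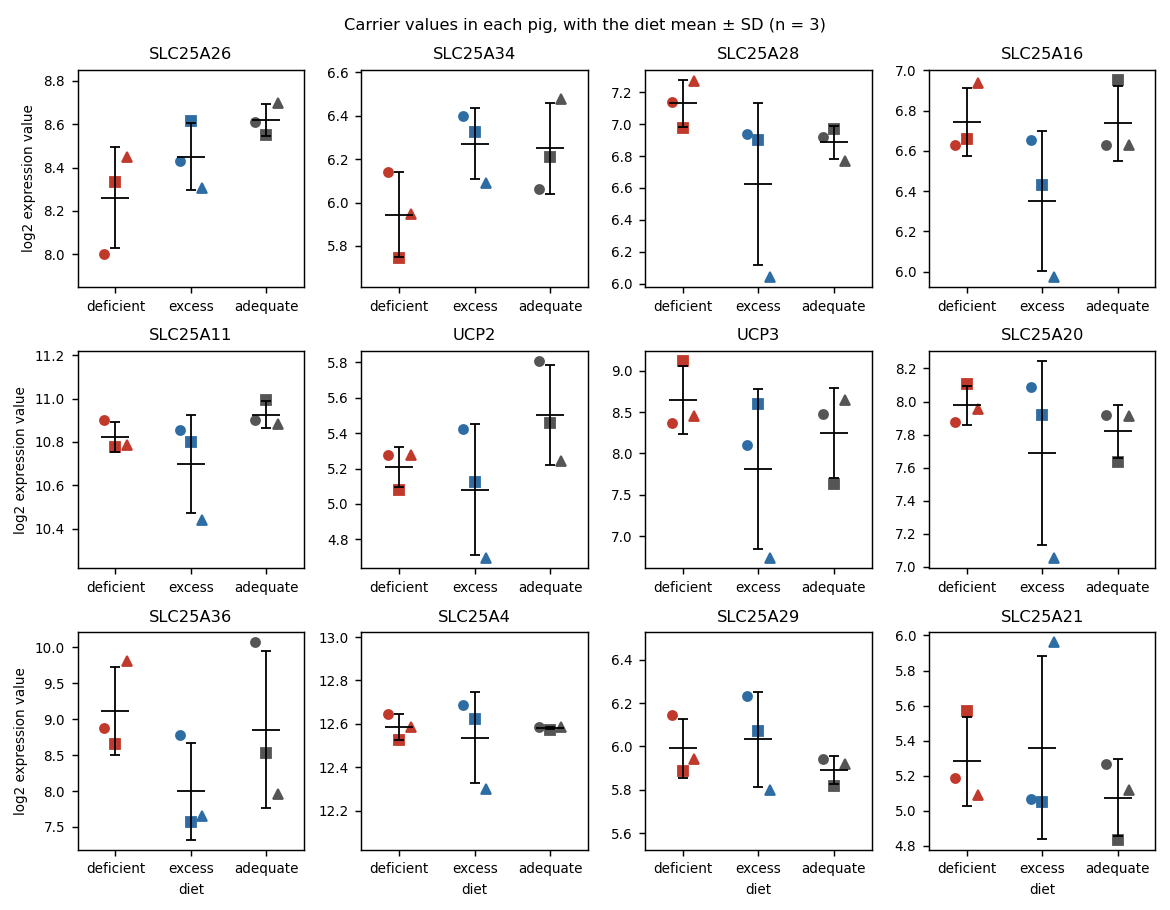
Log2 values of 12 carriers in each pig (points) with the mean and SD of each diet (3 pigs per diet), in the order deficient, excess, adequate. The deficient pigs of SLC25A26 lie between 8.00 and 8.45, below the adequate pigs at 8.55 to 8.70, and the lowest point of UCP3, 6.73, is excess pig 11.

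Carnitine-acylcarnitine translocase, SLC25A20, admits long-chain fatty acids to the matrix for oxidation. It read 7.87, 8.11 and 7.95 in deficient pigs, 8.09, 7.92 and 7.05 in excess pigs, and 7.92, 7.63 and 7.91 in adequate pigs. All but excess pig 11 lay between 7.63 and 8.11. The largest of its 3 differences, deficient minus excess, was 0.29 ± 0.25 (SE, unadjusted p 0.283) and -0.03 without that pig. SLC25A20 and UCP3 had the same lowest pig in every diet (deficient pig 1, excess pig 11 and adequate pig 6), as had SLC25A17, SLC25A26 and SLC25A43. The highest pigs of SLC25A20 and UCP3 differed in the excess diet (pig 9 and pig 10) and the adequate diet (pig 5 and pig 7). No likeness between carriers was tested.

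Electrons from cytosolic NADH reach the respiratory chain partly through the malate-aspartate shuttle, which needs an aspartate-glutamate carrier and the oxoglutarate carrier. SLC25A12, the aspartate-glutamate carrier of muscle and brain, read 9.56, 9.27 and 9.46 in deficient pigs, 9.77, 9.68 and 9.32 in excess pigs, and 9.56, 9.63 and 9.53 in adequate pigs. SLC25A11, the oxoglutarate carrier, read 10.90, 10.78 and 10.79 in deficient pigs, 10.86, 10.80 and 10.44 in excess pigs, and 10.90, 11.00 and 10.88 in adequate pigs. Every excess pig lay below every adequate pig for SLC25A11, by 0.03 at the closest. Excess minus adequate was -0.23 ± 0.11 (SE, 1.17-fold lower, 95% interval -0.49 to 0.03, unadjusted p 0.0798, adjusted p 0.757), and -0.10 without excess pig 11. SLC25A12 was lower by 0.14 ± 0.13 in deficient than in adequate pigs and lower by 0.16 ± 0.13 than in excess pigs, neither at an unadjusted p under 0.05. Without excess pig 11, deficient minus excess was -0.29 at an unadjusted p of 0.0191, with 3.71% of all probe sets under 0.05.

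SLC25A13, the aspartate-glutamate carrier of liver, read 6.33, 6.57 and 6.36 in deficient, 7.15, 6.24 and 6.36 in excess, and 6.34, 6.36 and 6.22 in adequate pigs, so that excess pig 9 alone stood high. SLC25A22, a glutamate carrier, had diet means of 4.11, 4.08 and 4.17. The citrate carrier SLC25A1, which exports citrate for fat synthesis, averaged 5.81 in deficient, 5.81 in excess and 5.94 in adequate pigs. None of these carriers separated the diets.

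The amino acid carriers included those nearest to lysine itself. SLC25A29, which carries arginine, lysine and other basic amino acids in human and mouse, read 6.15, 5.89 and 5.94 in deficient pigs, 6.23, 6.07 and 5.80 in excess pigs, and 5.94, 5.82 and 5.92 in adequate pigs. The diets overlapped: deficient minus adequate was 0.10 ± 0.12 (SE, 95% interval -0.18 to 0.38), excess minus adequate was 0.14 ± 0.12 (-0.14 to 0.42), and deficient minus excess was -0.04 ± 0.12 (-0.32 to 0.24). Without excess pig 11, excess minus adequate was 0.26 at an unadjusted p of 0.0341. SLC25A29 was then the only carrier under 0.05 in that comparison (2.86%, against 2.44% of all probe sets). A second, dimmer probe set of SLC25A29 ranged from 4.70 to 5.01 in deficient, 4.39 to 4.95 in excess and 4.67 to 4.88 in adequate pigs. Its excess minus adequate difference had the other sign, -0.07 ± 0.15 (SE, unadjusted limma p 0.651). With the mean of both probe sets, excess minus adequate was 0.04.

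SLC25A21, the carrier of 2-oxoadipate, read 5.19, 5.57 and 5.09 in deficient, 5.07, 5.05 and 5.96 in excess, and 5.27, 4.84 and 5.12 in adequate pigs. Excess pig 11 was highest and the other excess pigs lay inside the range of the adequate diet. Deficient minus adequate was 0.21 ± 0.26 (SE), or 0.06 without deficient pig 2 and 0.09 without adequate pig 6, and excess minus adequate was 0.29 ± 0.26, or -0.02 without excess pig 11. SLC25A15, the ornithine carrier, which also takes lysine and arginine in human, read 4.89, 4.80 and 4.69 in deficient, 5.17, 4.88 and 4.86 in excess, and 4.82, 4.95 and 5.02 in adequate pigs. Its deficient minus excess difference was -0.17 ± 0.11 (SE, unadjusted p 0.141). SLC25A44, a carrier of branched-chain amino acids in mouse and human, read 6.09, 6.09 and 6.37 in deficient, 5.95, 6.16 and 5.64 in excess, and 6.01, 6.42 and 6.09 in adequate pigs, again with overlap.

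Among the carriers of cofactors and nucleotides, SLC25A26 gave the smallest p of the family. It read 8.00, 8.33 and 8.45 in deficient pigs, 8.43, 8.61 and 8.31 in excess pigs, and 8.61, 8.55 and 8.70 in adequate pigs. The 3 deficient pigs were below the 3 adequate pigs, with excess pigs between and overlapping both. The means were 8.26 ± 0.23 and 8.62 ± 0.08 (SD, n = 3 each) in deficient and adequate pigs, and the difference was -0.36 ± 0.13 (SE, 95% interval -0.66 to -0.06, 1.28-fold lower). The unadjusted limma p was 0.0259 and the adjusted p was 1.00. Deficient pig 1 was the lowest of the 9, and without it the difference was -0.23. Over all alternatives the unadjusted p ranged from 0.0064 to 0.0782.

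SLC25A16 read 6.63, 6.66 and 6.94 in deficient pigs, 6.65, 6.43 and 5.97 in excess pigs, and 6.63, 6.95 and 6.63 in adequate pigs. Excess minus adequate was -0.38 ± 0.19 (SE, unadjusted p 0.0732) and deficient minus excess was 0.39 ± 0.19 (unadjusted p 0.0700). These were -0.19 and 0.20 without excess pig 11. SLC25A51, the carrier of NAD+ in human cells, read 9.68, 9.92 and 9.59 in deficient, 9.67, 9.59 and 9.23 in excess, and 9.43, 9.64 and 9.54 in adequate pigs, and its deficient minus adequate difference was 0.19 ± 0.14 (SE, unadjusted p 0.200).

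SLC25A36 and SLC25A33 carry pyrimidine nucleotides in human. SLC25A36 had the largest within-diet SD of the carriers, with 8.87, 8.65 and 9.81 in deficient pigs, 8.78, 7.57 and 7.65 in excess pigs, and 10.07, 8.52 and 7.96 in adequate pigs. Deficient minus excess was 1.11 ± 0.60 (SE, 2.16-fold, unadjusted p 0.0998, adjusted p 0.872), the largest difference of any carrier in that comparison, with 2 of the 3 deficient pigs above all excess pigs. Excess minus adequate was -0.85 ± 0.60 and deficient minus adequate was 0.26 ± 0.60. Adequate pig 5 read 10.07, and without it these were -0.24 and 0.87. SLC25A33 read 4.24, 4.40 and 4.29 in deficient, 4.27, 4.56 and 4.40 in excess, and 4.42, 4.40 and 4.56 in adequate pigs.

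SLC25A17, which moves coenzyme A and related cofactors across the peroxisomal membrane, had deficient pigs at 7.39, 7.43 and 7.44, excess pigs at 7.52, 7.55 and 7.01, and adequate pigs at 7.58, 7.51 and 7.52. The deficient minus adequate difference was -0.11 ± 0.14 (SE, unadjusted p 0.432), since the model's SE uses the spread of all 3 diets, including excess pig 11. SLC25A32, linked to folate and FAD transport, stayed within 7.40 and 7.58 in all pigs.

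Iron for haem and iron-sulphur clusters enters mitochondria through the mitoferrins. Mitoferrin-2, SLC25A28, the form found in most tissues, read 7.14, 6.98 and 7.27 in deficient pigs, 6.94, 6.90 and 6.04 in excess pigs, and 6.92, 6.97 and 6.77 in adequate pigs. It was the carrier whose deficient pigs lay above both other diets without overlap, by 0.01 above the highest adequate pig. Deficient minus excess was 0.50 ± 0.23 (SE, 1.42-fold, 95% interval -0.03 to 1.04, unadjusted p 0.0609) and 0.21 without excess pig 11. Deficient minus adequate was 0.24 ± 0.23 (unadjusted p 0.320; 0.0337 without excess pig 11, which enters the shared spread). Without that pig, 3.54% of all probe sets were under 0.05 in deficient against adequate. Mitoferrin-1, SLC25A37, which serves red cell precursors, had deficient values of 6.75 to 6.93, excess values of 6.36 to 7.02 and adequate values of 6.85 to 7.37.

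Of the 7 members grouped here under no settled substrate, SLC25A34 had the smallest p in both comparisons with deficient pigs. It read 6.14, 5.75 and 5.95 in deficient pigs, 6.40, 6.33 and 6.09 in excess pigs, and 6.06, 6.21 and 6.47 in adequate pigs. Deficient minus excess was -0.33 ± 0.15 (SE, 1.26-fold lower, unadjusted p 0.0560) and deficient minus adequate was -0.31 ± 0.15 (1.24-fold lower, unadjusted p 0.0709). In both, only deficient pig 1 reached into the range of the other diet. Without excess pig 11 the first of these was -0.42, at an unadjusted p of 0.0285, with 3.71% of all probe sets under 0.05.

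SLC25A43 read 7.39 to 7.93 in deficient, 6.41 to 8.03 in excess and 7.81 to 8.17 in adequate pigs, with excess pig 11 at 6.41. SLC25A46, an outer membrane protein involved in mitochondrial shape, averaged 9.75, 9.71 and 9.83 in deficient, excess and adequate pigs. SLC25A45 read 4.59, 4.62 and 4.76 in deficient, 4.53, 4.70 and 4.62 in excess, and 4.35, 4.69 and 4.57 in adequate pigs. SLC25A53 read 4.24, 4.10 and 4.10 in deficient, 4.11, 4.07 and 4.17 in excess, and 4.03, 4.10 and 4.10 in adequate pigs. SLC25A47 and SLC25A48 had within-diet SDs of 0.11 and 0.04, and the non-overlap of SLC25A48 between deficient and excess pigs was a difference of 0.05 ± 0.06 (SE).

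Excess pig 11 was the lowest of the 9 pigs for 18 of 35 carriers (51.4%), and all 18 were among the 28 carriers above the median level. Over all probe sets it was lowest for 31.6%, and over those above the median level for 53%. Against the mean of excess pigs 9 and 10, 30 of the 35 carriers were lower in pig 11, with a median of -0.39, against 53.5% of all probe sets and 75% of those above the median level, and 26 were under the median of the probe sets at their own level. UCP3 (-1.62), SLC25A43 (-1.53) and SLC25A24 (-1.21) were furthest below and SLC25A31 (1.72) furthest above. In the other lists this pig was lowest for 8 of 9 genes of the carrier import pathway, 9 of 11 of mitochondrial content and biogenesis, 6 of 7 of carnitine transport and beta oxidation, 6 of 12 other inner membrane transporters, 3 of 5 outer membrane channels and creatine kinases, 1 of 3 lysine breakdown enzymes and 0 of 4 NADH shuttle enzymes. It was lowest for 2 of 7 skeletal muscle markers and 4 of 6 fibroblast markers, and no difference between lists was tested. The cause of the low values was not tested.

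**Figure D4:**
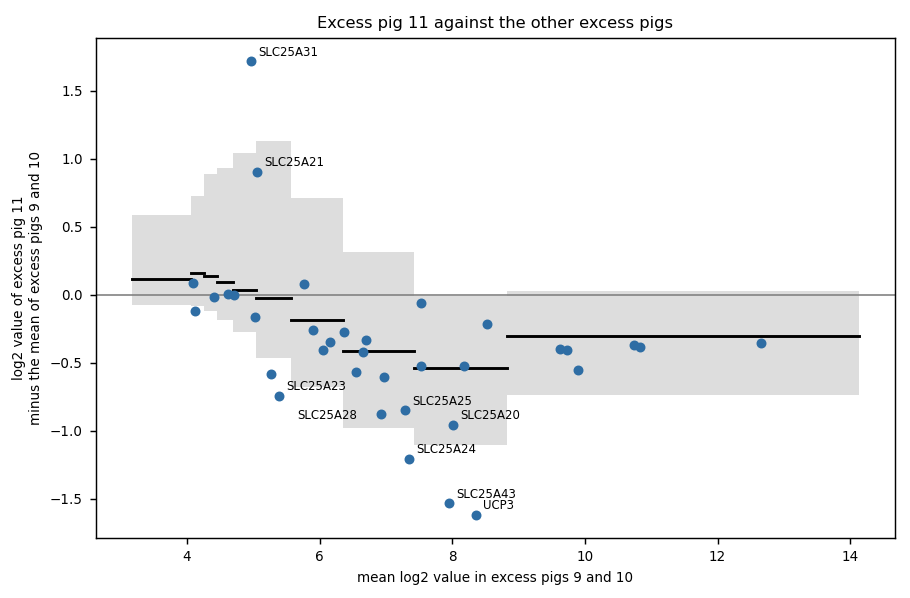
Log2 value of each carrier in excess pig 11 minus its mean in excess pigs 9 and 10 (vertical axis), against that mean (horizontal axis). Black lines are medians and grey boxes the 10th to 90th percentiles of all probe sets in 10 level bins; 30 of the 35 carriers lie below 0, and UCP3 (-1.62) and SLC25A43 (-1.53) are lowest.

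Carriers differed in how much they varied between pigs of 1 diet. The median within-diet SD was 0.22 for the carriers, 0.17 for all probe sets and 0.23 for those above the median level. SLC25A36 (0.82), SLC25A31 (0.80), SLC25A25 (0.74), UCP3 (0.68), SLC25A24 (0.61) and SLC25A43 (0.55) lay above the 90th percentile of all probe sets, 0.44. At the other end were SLC25A48 (0.04), SLC25A32 (0.06) and SLC25A53 (0.06). Equal deposited values in at least 2 pigs occurred in 14 of 35 carriers (40%), against 41.3% of all probe sets, and SLC25A4, SLC25A13, SLC25A33, SLC25A44 and SLC25A53 had 3 equal pigs.

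Genes that work with the carriers were read beside them. No gene of these lists passed an adjusted p of 0.05 in any comparison. Of the 4 measured NADH shuttle enzymes, GPD2, the mitochondrial glycerol-3-phosphate dehydrogenase, read 10.11, 10.06 and 10.07 in deficient pigs, 9.98, 9.79 and 9.92 in excess pigs, and 9.84, 9.78 and 9.90 in adequate pigs. Every deficient pig lay above every pig of the other diets. GPD2 was the only 1 of the 4 enzymes without overlap in either comparison. Of all probe sets, 6.84% did not overlap in deficient against adequate and 6.47% in deficient against excess. GPD2 was higher in deficient pigs by 0.24 ± 0.07 against adequate pigs (SE, unadjusted p 0.00879, adjusted p 1.00) and by 0.18 ± 0.07 against excess pigs (unadjusted p 0.0322, adjusted p 0.872; 0.19 without excess pig 11). The share of all probe sets at an unadjusted p under 0.05 was 1.85% in deficient against adequate and 4.08% in deficient against excess. With excess pig 11 included, the other measured shuttle enzymes gave no unadjusted p under 0.05. Without that pig, deficient minus excess was -0.29 for the shuttle enzyme GOT2 (unadjusted limma p 0.0251), with 3.71% of all probe sets under 0.05. GOT1 and GPD1 stayed above 0.05 there (unadjusted limma p 0.295 and 0.620).

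SLC22A5, the plasma membrane carnitine transporter, read 5.06, 5.35 and 5.43 in deficient, 5.17, 5.04 and 4.82 in excess, and 5.34, 5.37 and 5.46 in adequate pigs. It was lower in excess than in adequate pigs without overlap, by -0.39 ± 0.12 (SE, unadjusted p 0.0138, adjusted p 0.757), and by -0.29 without excess pig 11 (unadjusted p 0.0409), while the other 6 measured genes of carnitine transport and beta oxidation gave no unadjusted p under 0.05. Of all probe sets, 3.56% were under 0.05 in excess against adequate and 7.03% did not overlap. In the carrier import pathway, the receptors and chaperones that deliver carriers to the inner membrane, 9 of 13 genes were measured. None passed an unadjusted p of 0.05, with 4 higher and 5 lower in deficient against adequate, 0 higher and 9 lower in excess against adequate, and 7 higher and 2 lower in deficient against excess. The counts without excess pig 11 were 5 higher and 4 lower in excess against adequate, and 4 higher and 5 lower in deficient against excess. Of all probe sets above the median level, 28.3% were higher in excess against adequate and 65.2% in deficient against excess. Without excess pig 11 these shares were 44% and 49.2%. TOMM70, the receptor for carrier precursors, was higher by 0.35 ± 0.18 in deficient than in excess pigs (SE, unadjusted p 0.0854), and by 0.12 without excess pig 11. TOMM70 and TIMM9, a chaperone of the pathway, were above without overlap in deficient against adequate pigs, by 0.09 ± 0.18 and 0.21 ± 0.18. They were the only 2 of the 9 genes without overlap there, against 6.84% of all probe sets (3.77% higher). The largest difference of the list in that comparison was that of TOMM20, at -0.27.

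AASS, the enzyme that begins lysine breakdown, read 7.08, 6.65 and 7.13 in deficient, 7.15, 7.38 and 7.31 in excess, and 6.41, 7.35 and 7.48 in adequate pigs. Deficient pigs lay below excess pigs, by -0.33 ± 0.28 (SE, unadjusted p 0.272). AASS was the only 1 of the 3 measured genes of lysine breakdown without overlap there, against 6.47% of all probe sets (2.19% lower). With all 9 arrays, none of the 3 measured genes of lysine breakdown passed an unadjusted p of 0.05 in any comparison. Neither did any of the 12 other inner membrane transporters, the 5 outer membrane channels and creatine kinases or the 11 genes of mitochondrial content and biogenesis. Without excess pig 11, the transporter ABCB10 and the content gene TIMM44 were higher in excess than in adequate pigs, by 0.40 and 0.23. Their unadjusted limma p values were 0.0362 and 0.0419, with 2.44% of all probe sets under 0.05. In deficient against excess without that pig, ABCB10 and the content gene ESRRA passed, both lower in deficient pigs. Each was the only gene of its list to pass, with 3.71% of all probe sets under 0.05. Of the 11 genes of mitochondrial content and biogenesis, 6 were higher and 5 lower in deficient against adequate, 3 higher and 8 lower in excess against adequate, and 8 higher and 3 lower in deficient against excess. The counts turned without excess pig 11, to 9 higher and 2 lower in excess against adequate and 2 higher and 9 lower in deficient against excess. Of all probe sets above the median level, 28.3% were higher in excess against adequate, or 44% without excess pig 11. In deficient against excess 65.2% of them were higher, or 49.2% without that pig. Differences from these shares were not tested.

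Markers of other cells were read beside these values, and none passed an adjusted p of 0.05 in any comparison. The 5 measured of 7 adipocyte markers averaged 5.91 to 6.22 in deficient, 5.33 to 5.48 in excess and 5.54 to 6.02 in adequate pigs. At an unadjusted p under 0.05, 4 of them were higher in deficient than in excess pigs (80%, against 4.08% of all probe sets). At that threshold 3 were lower in excess than in adequate pigs (60% against 3.56%), or 1 without excess pig 11. Against adequate pigs, 1 was higher in deficient pigs (20% against 1.85%). The 6 measured of 7 fibroblast markers averaged 9.86 to 10.18 in deficient, 9.68 to 10.15 in excess and 10.27 to 10.62 in adequate pigs. Smooth muscle and pericyte markers (4 of 5) averaged 9.12 to 9.23, 9.01 to 9.39 and 9.34 to 9.66 in the same order, endothelial markers (5 of 6) 6.63 to 6.92, 6.53 to 6.97 and 6.54 to 6.72, and blood markers (3 of 4) 4.74 to 5.01, 4.94 to 5.23 and 4.87 to 5.09. At an unadjusted p under 0.05, 1 of the 6 fibroblast markers was lower in deficient than in adequate pigs (16.7% against 1.85%). In excess against adequate, 1 fibroblast marker (16.7%) and 1 smooth muscle marker (25%) were lower, against 3.56%. In deficient against excess, 1 blood marker was lower (33.3% against 4.08%). Only 1 of the 3 measured blood markers lay above the median level of the array. None of the 4 nerve markers or 2 satellite cell markers listed had a probe set named for it alone. Their part in the carrier and GPD2 values was not tested.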

How the data were processed

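One Affymetrix whole-transcript array was run per pig from TRIzol-extracted muscle RNA, per the labels' protocols. The authors deposited summarized log2 values per probe set (log base inferred from their range, 3.097 to 14.303, and every fold rests on it), made with GCOS 1.2 and Partek per the submitters' processing notes. Those notes assign neither tool a step, and how the arrays were background-corrected and normalized is not stated. Of 27558 probe sets, 13323 had 1 gene symbol, 357 several and 13878 none; 12968 symbols matched the pig gene table (Sscrofa11.1, RefSeq), as did all 35 carriers.

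The values were used as deposited. limma 3.58.1 in R 4.3.3 (lmFit, eBayes) fitted 1 mean per diet to all 9 arrays (6 residual degrees of freedom), with two-sided tests and Benjamini-Hochberg adjustment over all probe sets at 0.05, and an F test over the diets. SE is from this model, SD is among the 3 pigs of a diet, and 3 arrays per diet limit the precision. The comparisons share diets, so they are not independent. The fit was tested on simulated data. Figures were drawn with matplotlib 3.10.9 in Python 3.11.15.

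Pig values are given for carriers among the 5 highest or 5 lowest t values of a comparison, and for SLC25A3, SLC25A4, SLC25A12, SLC25A20, SLC25A21, SLC25A29, UCP2 and UCP3; SLC25A17, also given by pig, was added after its values were seen, because its diets did not overlap. Companion genes were named at an unadjusted p under 0.05 or as leaders of their list by size in a comparison, and not every leader was named. Members, lists and roles were chosen with earlier results of these data known. Alternatives changed the normalization, the samples in the fit, the prior, array weights, a covariate, filters, the probe set rule and the pigs included.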

Additional observations from a re-analysis of the deposited data

How the results depend on the processing

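No carrier passed an adjusted p of 0.05 under any alternative run, in the pairwise comparisons or the F test. Over all probe sets 1 passed with array quality weights, in deficient against adequate and in the F test, and 1 passed in deficient against excess when probe sets with a single symbol were tested alone. Of 72 named differences between diets, 39 kept their sign under every alternative and 33 turned under at least 1; of 1293 alternative values, 4 moved by more than the within-diet SD.

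Carriers at an unadjusted p under 0.05 in deficient against adequate numbered 2 with only the 6 arrays compared (5.71%, against 3.41% of all probe sets), 3 with array weights (8.57% against 8.01%) and 3 with the array SD as a covariate (8.57% against 4.8%). They numbered 0 to 2 when single pigs were left out (0 without adequate pig 7, against 1.5% of all probe sets, and 2 without excess pig 11, 5.71% against 3.54%). In excess against adequate they numbered 1 with array weights (2.86% against 0.987%) and 0 to 4 when pigs were left out (4 without excess pig 9, 11.4% against 16.8%). In deficient against excess they numbered 3 with quantile normalization (8.57% against 4.59%), 3 with the covariate (8.57% against 6.26%) and 0 to 5 when pigs were left out (5 of 35 without excess pig 9, against 14.4% of all probe sets). In the F test they numbered 1 with quantile normalization, 1 with array weights, 1 with the covariate and 0 to 2 when pigs were left out (2 without excess pig 9). The shares of all probe sets in these F tests are not given here, so these counts cannot be set against a background.

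Carriers higher in excess against adequate numbered 5 with arrays centred on their medians, 18 with the covariate, and 7 to 19 when pigs were left out (7 without adequate pig 5, 19 without excess pig 11). In deficient against excess, 15 were higher with the covariate and 13 to 26 when pigs were left out, and 19 were lower with array weights, 20 with the covariate and 9 to 22 when pigs were left out (13 higher and 22 lower without excess pig 11). The carrier median ranged over alternatives from -0.09 to 0.03 in deficient against adequate, from -0.14 to 0.02 in excess against adequate and from -0.06 to 0.13 in deficient against excess, and turned its sign in 7, 2 and 3 of 18 alternatives. Centring moved every probe set of an array by the same amount. Apart from those without excess pig 11, the counts of carriers higher or lower have no share of all probe sets given under the same setting. They cannot be set against a background. The weights did not reach the fitting tolerance. Leaving out excess pig 11 from the companion and marker lists was chosen after seeing the data. No paired analysis was possible because the diets share no pig numbers. Signal over background was not tested, so small differences of dim carriers are uncertain.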
